A study of Mus musculus with 3 samples.

Results

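Rlbp1, Glul, Clu and Apoe are transcripts by which Müller glia, the radial glial cells of the retina, are commonly recognised. They were read here by 7 probe sets, each a group of short probes against a transcript on the Affymetrix U74Av2 array, out of 12488 probe sets in the deposited table. The 4 genes, of 8251 with a named probe set, were chosen by gene symbol when their signals on these same arrays were already known, so every signal given for them is a description and supports no test. Each of the 3 samples was neural retina pooled from 3 to 4 wild-type littermates of Rp1-/- mice, of mixed 129/SvEv and C57BL/6 background, taken at postnatal day 10 between 1 and 2 pm. All 3 pools form 1 group, so the data give the level of each transcript and its spread between pools, with no comparison between conditions. Mutant retinas were not analysed here. Pools are numbered 1 to 3 in accession order, which only names them. The sample titles of pools 2 and 3 contain the name Rp1, and the grouping follows the descriptions, which call all 3 wild type. The labels do not say whether a mouse gave tissue to more than 1 pool, so SD values measure the spread between these samples, part of which may be technical.

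Müller glia span the whole thickness of the neural retina and serve its neurons. They take up glutamate released at synapses and turn it into glutamine, bind and pass on retinoids of the visual cycle, and secrete lipoprotein particles that carry cholesterol and other lipids. Rlbp1 encodes a binding protein for cis-retinoids, Glul encodes glutamine synthetase, Apoe encodes the lipid carrier apolipoprotein E, and Clu encodes clusterin, a secreted chaperone also called apolipoprotein J. None of the 4 is made by Müller glia alone. Pigment epithelium also makes Rlbp1, astrocytes make Glul, Clu and Apoe, and microglia make Apoe. Because whole retina was measured, more Müller cells and more transcript in each cell cannot be told apart.

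The stretch around the transcription start was available for 3 of the 4 genes, all but Clu, from RefSeq on GRCm38.p6. It is shown as a description, and a link between these letters and the signals was not tested. Each runs 5′ to 3′ on the gene's own strand, from 250 bases before the start into the first 50 bases of the transcript. Capitals mark matches on either strand to 5 short motifs. The general ones were the TATA box, searched as TATAAA, the CCAAT box, searched by its name, and the GC box, searched as GGGCGG. The others were the core recognised by CRX, a photoreceptor factor, searched as TAATCC, and that of SOX factors, searched as ACAATG. For Apoe, which has 3 such windows, the most upstream is shown.
Rlbp1, chr7:79386978-79387277, minus strand: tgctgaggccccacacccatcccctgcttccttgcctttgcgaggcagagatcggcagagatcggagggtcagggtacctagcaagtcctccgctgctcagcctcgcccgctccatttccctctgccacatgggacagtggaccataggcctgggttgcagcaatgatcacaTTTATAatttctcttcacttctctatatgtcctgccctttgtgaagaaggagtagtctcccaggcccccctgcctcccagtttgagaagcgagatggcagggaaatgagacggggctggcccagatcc
Glul, chr1:153899679-153899978, plus strand: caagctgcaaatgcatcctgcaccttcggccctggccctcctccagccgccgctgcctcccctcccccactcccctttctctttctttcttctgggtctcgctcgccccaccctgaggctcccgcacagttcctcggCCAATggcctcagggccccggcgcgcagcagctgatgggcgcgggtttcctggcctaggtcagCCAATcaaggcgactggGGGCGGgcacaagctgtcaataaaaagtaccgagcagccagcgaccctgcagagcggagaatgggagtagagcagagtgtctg
Apoe, chr7:19699139-19699438, minus strand: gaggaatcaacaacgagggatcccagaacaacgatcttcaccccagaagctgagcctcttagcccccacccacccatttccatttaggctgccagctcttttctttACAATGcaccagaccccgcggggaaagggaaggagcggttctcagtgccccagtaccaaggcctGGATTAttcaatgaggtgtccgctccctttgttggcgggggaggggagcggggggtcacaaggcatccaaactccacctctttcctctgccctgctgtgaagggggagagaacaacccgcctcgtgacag

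Rlbp1 had TATAAA on the reverse strand 78 to 73 bases before the start. Glul had CCAAT 113 to 109 and again 50 to 46 bases before it, and GGGCGG 33 to 28 bases before it. The Apoe window shown had ACAATG 144 to 139 bases before its start and TAATCC, reversed, 80 to 75 bases before it. Of the other Apoe windows, that of the second start site holds TATAAA on both strands, 96 to 91 and, reversed, 100 to 95 bases before that start, and that of the third holds none of the 5 motifs. In the 3 windows shown no matches to different motifs overlap. Of 32851 RefSeq windows of this length, TATAAA occurs in 13.6%, CCAAT in 37.4%, GGGCGG in 35.7%, TAATCC in 7.06% and ACAATG in 12.6%. CpG pairs numbered 8 in the Rlbp1 window, 17 in that of Glul and 10 in that of Apoe, against a median of 7 over all windows. A match is a description of the letters and not a bound site, and no binding data belong to this series.

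All 4 genes had at least 1 probe set with a clear signal. Background was judged from 83 genes that are active in other tissues and not in retina, which had 113 probe sets. On a given array, a signal counted as clear when it passed the level that 90% of those sets stayed under, which was 404.7, 395.0 and 328.7 for pools 1 to 3 and is called the limit below. Of the 7 probe sets, 4 exceeded it on all arrays, 1 for each gene, against 31.9% of all 12422 probe sets. The limit was lowest on array 3, where 5185 probe sets passed it, against 4542 and 4683 on arrays 1 and 2. A nearly even signal can thus pass it in pool 3 alone. The sets 94852_at of Glul and 161294_f_at of Clu exceeded it in pools 2 and 3 only, and 161321_i_at of Apoe in none. A set below the limit does not show that its gene is silent, since the other Apoe set exceeded it on all arrays. Signals are deposited intensities. They are not transcript amounts per length and are not compared between probe sets.

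**Figure D1:**
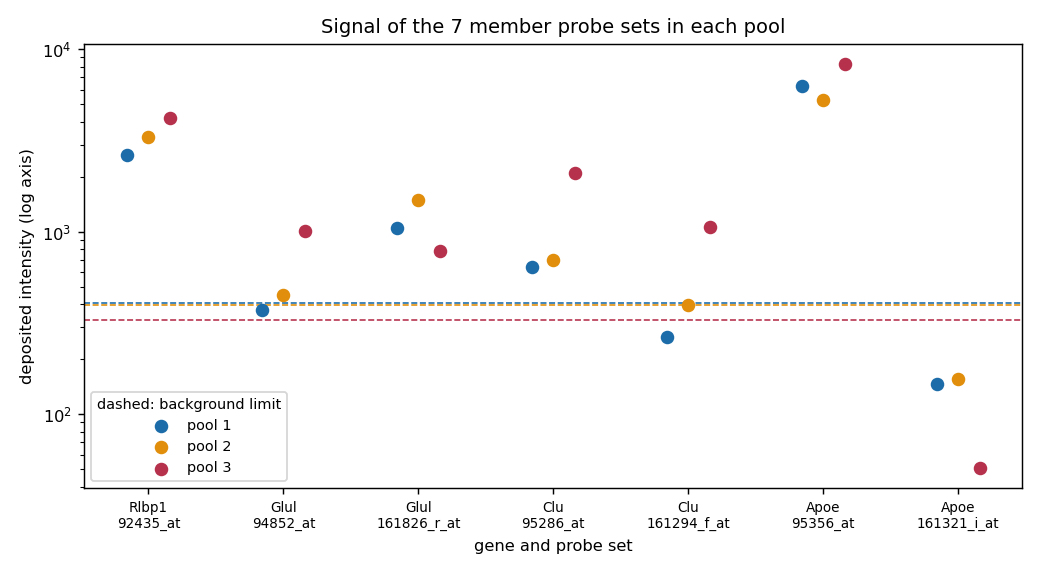
Deposited intensity (log axis) of each of the 7 probe sets, with 1 point per pool and dashed lines at the background limit of each array (404.7, 395.0 and 328.7). Pool 3 is the highest point for 5 sets, and for 161826_r_at of Glul and 161321_i_at of Apoe it is the lowest.

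Rlbp1, the retinoid carrier, was measured by a single probe set, 92435_at, at 2617.5, 3315.6 and 4195.9 in the order of the pools' numbers. The mean was 3376 ± 791 (SD, n = 3), and each signal was at least 6.47 times the limit of its array. The pools were spread evenly, with a 1.60-fold range, and of the 4780 probe sets above the limit on average 30.5% had a range as wide.

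Apoe, the lipid carrier, had signals of 6299.6, 5295.1 and 8268.8 on 95356_at, which average 6621 ± 1513 (SD, n = 3). Pool 3 was highest and pool 2 lowest, a 1.56-fold range that 33.7% of probe sets equalled or exceeded. Each signal was at least 13.4 times the limit. A second set, 161321_i_at, read 146.0, 156.6 and 50.5, below the limit on every array, and its order of pools has no weight at that signal. The suffix _i_at marks a set with an incomplete number of probes.

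Clu, clusterin, had the widest spread of the 4 genes. On 95286_at pool 1 had 635.8, pool 2 had 702.0 and pool 3 had 2107.2, a mean of 1148 ± 831 (SD, n = 3). Pools 1 and 2 lay close together at a 1.10-fold difference, and pool 3 stood 3.31-fold above pool 1 and 3.00-fold above pool 2. A range as wide was found in 1.86% of the probe sets above the limit on average. The second Clu set, 161294_f_at, read 265.0, 395.9 and 1061.4, with a mean of 574.1 ± 427.1 (SD, n = 3), and was likewise highest in pool 3. Its suffix marks a set that may match several members of a sequence family. Its range was 4.01-fold with pool 1 below the limit, and pool 3 was 2.68-fold above pool 2, which lay at the limit. Both sets of Clu were thus highest in pool 3. Without pool 3 the range of 95286_at was 1.10-fold and that of 161294_f_at 1.49-fold, so the wide spread of Clu rests on this 1 array.

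Glul, glutamine synthetase, gave conflicting readings. The set 94852_at, without a suffix letter, gave 371.1, 449.5 and 1002.8 over the pools, on average 607.8 ± 344.3 (SD, n = 3), and was highest in pool 3. Pool 1 was below the limit there, and pool 3 was 2.23-fold above pool 2. The set 161826_r_at read 1040.2, 1492.1 and 785.0, with a mean of 1106 ± 358 (SD, n = 3), and was highest in pool 2 and lowest in pool 3. The suffix _r_at marks a set for which the rules of probe selection were relaxed, and the annotation used here names no target accession for it. A wide range, over 1 log2 unit or 2-fold, was reached by 94852_at and both Clu sets. These are 3 of the 6 member sets above the limit on average, against 11.6% of all such probe sets. The Clu set 161294_f_at is among the 6 only through its signal in pool 3, so this count supports no test. Of the 4 member sets above the limit on all arrays, 1 had a wide range, against 6.99% of all genes above it on all arrays. Without pool 3 a wide range was reached by 0 of the 6.

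**Figure D2:**
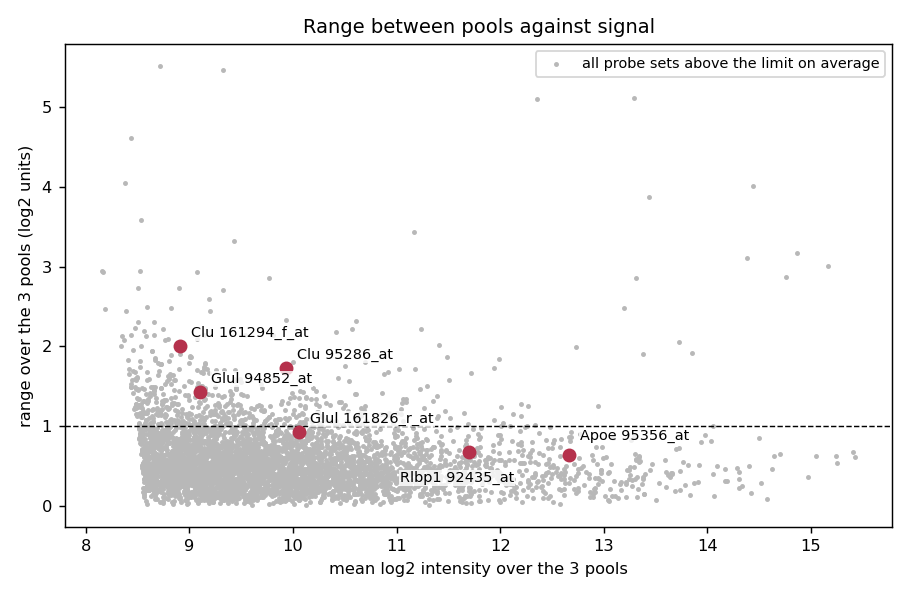
Range of log2 intensity over the 3 pools against mean log2 intensity, for the 4780 probe sets above the limit on average (grey) and the 6 member sets among them (red). Both Clu sets and 94852_at of Glul lie above the dashed line at 1 log2 unit, whereas the sets of Rlbp1 and Apoe lie at 0.68 and 0.64.

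The disagreement at Glul was large for 2 probe sets of 1 gene. Each signal was centred, that is, the mean log2 signal of the set over the pools was subtracted. In pool 3 the centred signal was 0.86 for 94852_at and -0.44 for 161826_r_at, a difference of 1.31 on the log2 scale. Among 540 pairs of probe sets from 439 genes, both above the limit on average, the median of the largest difference was 0.35. A difference at least as large as at Glul was found in 8 pairs, or 1.48%, the Glul pair included. The Clu pair differed by at most 0.24, and 71.7% of pairs differed at least as much. That difference lies in pool 1, where 161294_f_at was below the limit, so it is no close measure of how well the sets match. Without pool 3 the difference at Glul was 0.12. Having the same highest pool was not the rule among pairs, and held for 43.1% of all 540. It held for 12 of 46 pairs of a set without suffix letter and an _r_at set, whose median difference was 0.50, and for 91 of 187 pairs of 2 sets without suffix letter, whose median was 0.35. Which of the 2 Glul sets follows glutamine synthetase transcript more closely was not tested.

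**Figure D3:**
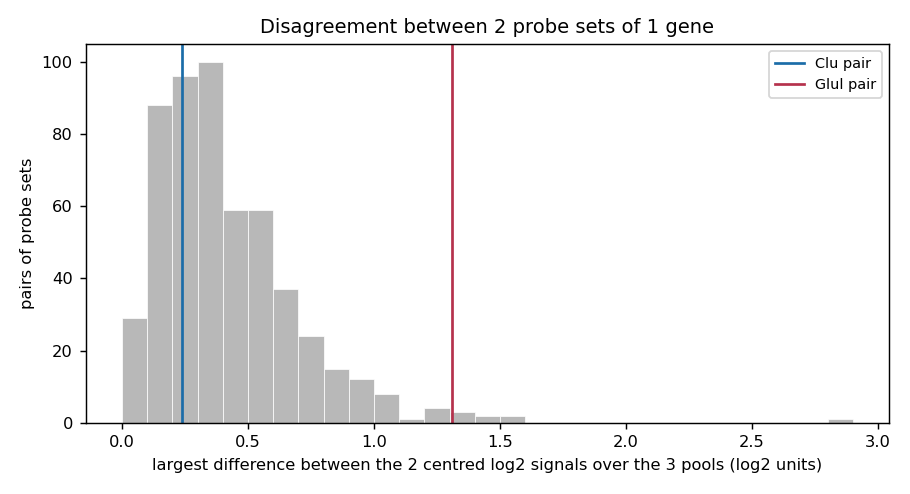
Histogram of the largest difference between the centred log2 signals of 2 probe sets of 1 gene, over 540 pairs. The Clu pair (blue line, 0.24) lies left of the bulk's median of 0.35, and the Glul pair (red line, 1.31) lies in the right tail.

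On the sets without a suffix letter, all 4 genes were highest in pool 3. This is 4 of 4, against 32.2% of such sets above the limit on average, and over all suffixes 5 of 6 member sets against 32.3%. The 6 include 161294_f_at of Clu, which passed on average only through its signal in pool 3. Of the 4 member sets above the limit on all arrays, 3 were highest in pool 3, against 31.3% of all genes above it on all arrays. The sizes differed. In pool 3 the centred log2 signal was 1.10 for Clu, 0.86 for Glul on 94852_at, 0.35 for Apoe and 0.34 for Rlbp1. Clu thus exceeded Rlbp1 by 0.76 and Apoe by 0.76 in pool 3 relative to their own means, whereas Apoe and Rlbp1 were level there and parted in pools 1 and 2 by at most 0.30. Scaling the arrays by the median, by quantiles, without lens probe sets or to housekeeping genes left pool 3 highest for all 4. It changed the 3.31-fold range of Clu to between 2.89-fold and 3.32-fold and the 1.56-fold range of Apoe to between 1.37-fold and 1.63-fold. Under the housekeeping scaling the lowest pool of Clu on 95286_at became pool 2.

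The pools also differed in other ways, not all of which set pool 3 apart. The lens list, whose genes are made in a tissue next to the retina, had summed signals of 226920, 36746 and 423789 in pools 1 to 3, with all 8 genes above the limit on all arrays highest in pool 3 and lowest in pool 2. The rod list summed to 95580, 107691 and 159138, and 10 of its 14 genes above the limit on all arrays were highest in pool 3. Over all genes above the limit on all arrays, 31.3% were highest in pool 3. For the Actb control, the 3′ signal divided by the 5′ signal came to 1.20, 1.44 and 1.69, and for the Gapdh control to 0.95, 0.88 and 0.93. The part of these differences in the member signals was not tested.

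Markers of other cells of the eye differed in how many were above the limit. Over all genes, 38.9% were above it on all arrays. The summed signals include genes below the limit, whose order of pools is not reliable. In the astrocyte list 3 of 9 measured genes were above the limit on all arrays, and the summed signal was 3868, 3243 and 6582 in pools 1, 2 and 3. Gfap read 321.9, 210.7 and 277.7, and S100b and Pax2 were likewise above the limit in no pool, whereas Aldoc, aldolase C, read 1444.9, 1204.8 and 3799.7. Aldoc alone made up most of the astrocyte sum in pool 3. In the pigment epithelium list 0 of 9 were above it on all arrays and 7 on none, Rdh5, Rgr, Ttr and Tyr among them, and the sum was 1355, 2184 and 2327. The other 2, Dct at 318.7, 596.4 and 604.9 and Pmel at 508.0, 348.2 and 777.1, are genes of pigment cells named after their values were seen. Each was above the limit in 2 pools and highest in pool 3, which for Dct was close to pool 2. Pmel was lowest in pool 2 and Dct in pool 1. The other 7 genes have no reliable order of pools. Rlbp1, above the limit in all pools, was highest in pool 3 and lowest in pool 1, and so differed from Pmel in its lowest pool. In the microglia and leukocyte list 3 of 18 were above it on all arrays. Its sum was nearly even, at 3912, 4029 and 3795, and 12 of the 18 were above the limit in no pool. Cx3cr1, a microglial receptor, read 452.1, 536.3 and 439.3, while Csf1r, Aif1 and C1qa were above the limit in no pool. In the endothelial and mural list 1 of 14 genes was above it on all arrays, Kdr at 727.7, 854.2 and 1143.1, and the sum was 3337, 3201 and 4882. Pecam1 passed the limit in pool 3 alone, and Cdh5 and Flt1 in no pool. The red blood cell list summed to 22377, 5031 and 15452. The progenitor list summed to 10041, 9383 and 8361, and 7 of its 13 measured genes were above the limit on all arrays. Among its first genes Hes1 was above it in all pools, Notch1 in pools 1 and 2, and Hes5 and Fgf15 in none. The part of these cells in the member signals was not tested.

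Other Müller glia genes were present but did not spread alike. Of 42 listed, 33 had a named probe set, and 20 were above the limit on all arrays and 9 in no pool, against 38.9% of all genes above it on all arrays. Slc1a3, Kcnj10 and Sox9, widely used Müller markers, were not analysed here. Car2, a carbonic anhydrase, read 6765.3, 6468.7 and 10766.9, with a mean of 8000 ± 2401 (SD, n = 3). Dkk3, a secreted protein of the dickkopf family, read 3095.5, 2215.4 and 3880.0, and Car14, a membrane carbonic anhydrase, 1329.9, 1065.6 and 1480.5. These 3 were highest in pool 3 and lowest in pool 2, as Apoe was. Sox2, a transcription factor kept in Müller cells, read 1119.4, 1269.7 and 1084.9, and Hes1, a target of Notch signalling, 593.7, 618.8 and 573.7. Their ranges were 1.17-fold and 1.08-fold. Hes5 and Vim, the intermediate filament vimentin, were above the limit in no pool, and Aqp4, the glial water channel, only in pool 3, at 139.8, 73.1 and 438.0.

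Of the 20 other Müller glia genes above the limit on all arrays, 10 were highest in pool 3, and pools 1 and 2 were each the highest for 5, against 31.3% of all genes highest in pool 3. The median centred signal in pool 3 was 0.051 for these 20 and -0.026 for all 3206 genes above the limit on all arrays. Only Cd9, a tetraspanin, had a range over 2-fold among the 20, reading 634.2, 1463.9 and 988.2 and thus highest in pool 2. Over all genes this share was 6.99%.

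**Figure D4:**
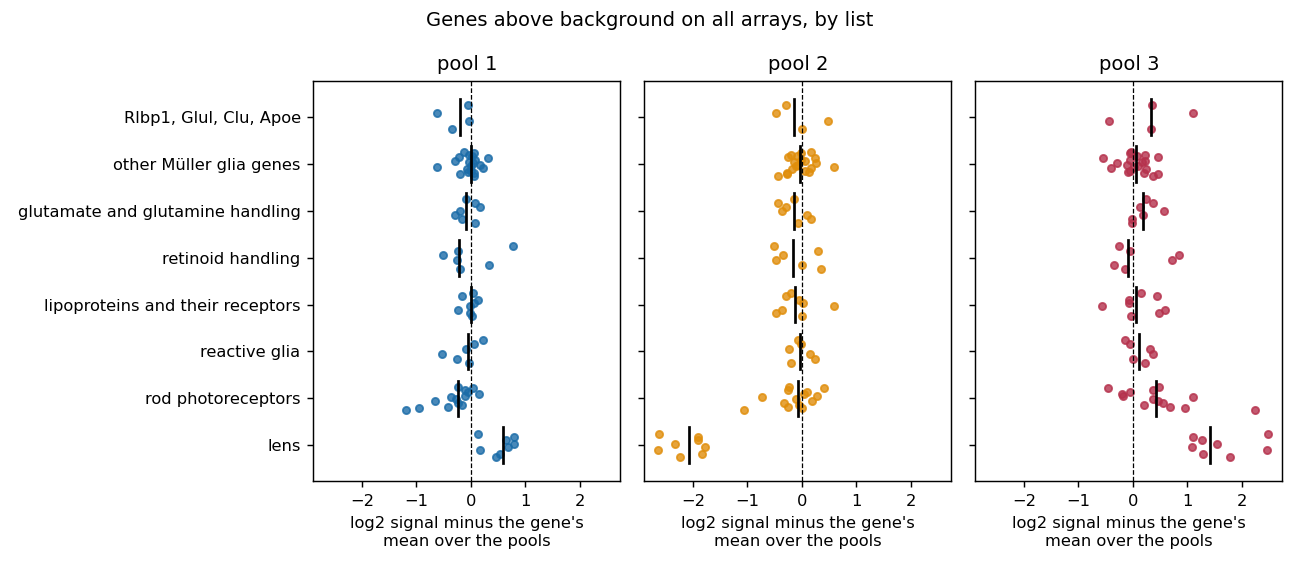
Centred log2 signal in each pool of the genes above the limit on all arrays, by list, with 1 point per gene and a bar at the list's median. Each gene is shown by its set with the highest mean, which for Glul is 161826_r_at, the point left of 0 in pool 3. In pool 3 the bar of the 4 genes lies at 0.34, that of the other Müller glia genes at 0.051, that of the rod list at 0.42 and that of the lens list at 1.41.

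Glul works in a cycle with glutamate carriers and with enzymes that make or use glutamate. Of 22 listed genes 14 were measured, 7 were above the limit on all arrays and 5 in no pool. The share of all genes above it on all arrays was 38.9%. Glud1, glutamate dehydrogenase, read 537.6, 483.8 and 501.6, and Got2, the mitochondrial aspartate aminotransferase, 1145.1, 1439.8 and 1251.9. Gad1, which turns glutamate into GABA in amacrine cells, read 1628.8, 2116.5 and 2270.1, while Gad2, Got1 and Aldh18a1 were above the limit in no pool. The carriers Slc1a1, a neuronal type, and Slc1a2 were near or below the limit. Slc1a1, at 365.8, 345.3 and 424.4, passed it in pool 3 alone, and Slc1a2, at 446.2, 113.9 and 122.4, in pool 1 alone. The range of Slc1a1 was 1.23-fold, and its signals in pools 1 and 2 would pass the lower limit of pool 3. None of the 7 had a range over 2-fold, and 4 were highest in pool 3. Of all genes above the limit on all arrays, 6.99% and 31.3% did so.

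Rlbp1 belongs to the retinoid pathway, whose other members lie in photoreceptors, pigment epithelium and Müller cells. Of 26 listed genes 18 were measured, 6 were above the limit on all arrays and 12 in no pool. The share of all genes above it on all arrays was 38.9%. Rdh11, a retinol dehydrogenase, read 1286.0, 1887.3 and 1343.9, and Crabp1, a carrier of retinoic acid, 970.5, 773.3 and 609.6. Rdh5, Rgr, Rbp2, Rbp4, Crabp2 and Stra6 were above the limit in no pool. A range over 2-fold was reached by 3 of the 6, against 6.99% of all genes above the limit on all arrays. Abca4, the retinoid transporter of outer segments, read 2387.0, 2037.1 and 4657.0. Aldh1a1, which makes retinoic acid, read 708.8, 792.1 and 1807.2. Its other probe set, at 176.0, 133.0 and 301.8, was below the limit on every array. Abca4 and Aldh1a1 were highest in pool 3, whereas Rxrb, a nuclear retinoid receptor, read 2418.6, 983.1 and 1178.5 and was highest in pool 1.

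Apoe and Clu are ligands of lipoprotein receptors, and particles carrying them are lipidated by cell surface transporters. Of 29 listed genes 23 were measured, 8 were above the limit on all arrays and 13 in no pool. The share of all genes above it on all arrays was 38.9%. Among receptors, Lrp1, which takes up Apoe particles, was very even at 950.1, 929.9 and 911.8, with a mean of 930.6 ± 19.2 (SD, n = 3). Lrp6, a Wnt coreceptor of the same family, read 592.6, 434.9 and 840.2, and Lrpap1, the chaperone of these receptors, 1427.5, 1302.4 and 2537.8. Vldlr and Lrp2 were above the limit in no pool. Among lipid exporters, Abcg1 read 2046.0, 1992.0 and 1872.4, Scarb1, a receptor for high density lipoprotein, 2880.1, 2551.0 and 2496.7, and Abca1 599.6, 912.9 and 411.7. The only gene of the 8 past 2-fold, against 6.99% of all genes clear on all arrays, was Abca1, at a 2.22-fold range. Abca1 was lowest in pool 3. Its other probe set, at 662.5, 381.5 and 411.3, was lowest in pool 2, where it lay below the limit.

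Genes that rise when Müller glia react to injury were measured as well. Of 25 listed 21 had a named probe set, 6 were above the limit on all arrays and 11 in no pool. The share of all genes above it on all arrays was 38.9%. Gfap and Vim, filament proteins of reactive glia, were not above it in any pool, which does not show that these genes were silent. Serpina3n, a protease inhibitor, passed it in pool 3 alone, at 108.8, 275.2 and 423.5. Cp, ceruloplasmin, read 686.5, 611.5 and 819.1, with a mean of 705.7 ± 105.1 (SD, n = 3). Across the 5 lists on Müller glia, glutamate, retinoids, lipoproteins and reactive glia, 102 distinct genes other than the 4 were measured. Of these, 45 were above the limit on all arrays, against 38.9% of all genes. Pool 3 was highest for 22 of the 45, pool 1 for 13 and pool 2 for 10, and 5 had a range over 2-fold. Over all genes above the limit on all arrays, 31.3% were highest in pool 3 and 6.99% ranged over 2-fold.

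The genes nearest to each member by centred log2 signal over the 3 pools were sought among 3202 other genes above the limit on all arrays. With 3 pools many genes lie close to any even pattern, and the likeness is a description. Within a Euclidean distance of 0.5 lay 1339 genes for Apoe, 1081 for Rlbp1 and 757 for Glul on 161826_r_at, but 49 for Glul on 94852_at and 10 for Clu on 95286_at. Nearest to Clu were Aldoc at 0.31, Aldh1a1 at 0.32 and Slc6a6, the taurine transporter, at 0.33. Slc6a6 read 1626.2, 2471.1 and 5939.4, and was also the nearest to the second Clu set, at 0.12. Next for that set came Gnb1, a gene of the rod list, at 0.35 and Drd4 at 0.45. Nearest to 94852_at of Glul were Timm13 at 0.076, Aldh1a1 at 0.085 and Alpl at 0.18. The searches for this set and for the second Clu set were added after the values were seen. For 161826_r_at they were Slc38a2, an amino acid transporter that carries glutamine, at 0.013, Psma5 at 0.022 and Pml at 0.030. Nearest to Rlbp1 were Dhrs3, a retinal reductase, at 0.021, H1f2 at 0.028 and Atp6v1a at 0.032, and nearest to Apoe were Map1lc3a at 0.0038, Dock9 at 0.011 and Vps54 at 0.022. Aldh1a1 was thus among the 3 nearest to both Clu and the Glul set that was high in pool 3, at unlike distances of 0.32 and 0.085.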

How the data were processed

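Total RNA of the 3 pools was measured on Affymetrix U74Av2 arrays, per the labels. The deposited table gives 1 linear intensity per probe set, never negative. The software and scaling by which the authors made the intensity are not given in the sources used here. Its means after trimming 2% at each end were 500.3, 500.2 and 500.3, so the deposited intensities were used without further scaling. Values below 1 were set to 1 before log2. Gene symbols were those of the platform table at GEO, which can be outdated. A single symbol was held by 10855 probe sets, several by 396 and none by 1237. Of those with a single symbol, 10839 were matched by Entrez number to RefSeq genes of GRCm38.p6, whose symbols were then used. The 66 control sets were left out. A gene was represented by its probe set with the highest mean, and all 7 sets of the 4 genes are given. With 1 group no test between conditions was run, and the number of arrays limits the precision. The members and lists were chosen with earlier results of these data known. Besides the members, genes were named as the first 8 measured of each pathway list, the first 4 of the reactive glia list and of marker lists, pathway genes clear on all arrays that ranged over more than 2-fold, and the 3 nearest genes. The rod, lens and red blood cell lists are given by sums or counts, without naming their first genes. Genes outside this rule are said to be so where they are named. Ranges and counts were checked on simulated data. Alternatives were 4 other scalings, a floor of 50, the 75th and 95th percentile as the limit, averaged or plain _at probe sets, and each pool left out. Python 3.11.15, numpy 2.4.6 and pandas 2.3.3 were used.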

Additional observations from a re-analysis of the deposited data

How the results depend on the processing

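Of 181 recomputed values, 167 stayed within 1 SD of the main value or, for counts, within 1.5 times of it. Of the 14 that moved, 12 did so with a pool left out. No sign could change, because none of these values can be negative. Some values could not move at all. A factor per array leaves the difference between 2 sets of a gene as it was, and the floor of 50 lies below every member signal. With each pool left out in turn, the member sets with a range over 2-fold numbered 0 to 3, the difference between the Glul sets was 0.12 to 1.04 on the log2 scale, and the pathway genes with a range over 2-fold numbered 2 to 3. A range over 2 pools is smaller by construction. Without pool 3 the range of Apoe on 95356_at was 0.25 log2 units, and without pool 1 that of Rlbp1 was 0.34. Without pool 1, 6 member sets were above the limit on all remaining arrays, and 4 without pool 2 or pool 3. The pathway genes past 2-fold numbered 9 with the limit at the 75th percentile and 3 with averaged probe sets. Scaling to housekeeping genes moved the median of all probe sets by 0.13, -0.037 and -0.093 on arrays 1, 2 and 3. The plain sets of all 4 genes were highest in pool 3 under each of the 4 scalings. The floor of 50 could not change this. No paired analysis was possible because all pools form 1 group. Signals below the limit have no reliable order.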

Other observations

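Some pathway genes outside the naming rule, picked after their values were seen, were also highest in pool 3. Asns, which makes asparagine with glutamine as nitrogen donor, read 1556.0, 1390.0 and 2646.1 in pools 1, 2 and 3. Slc3a2, the heavy chain of amino acid exchangers, read 2556.9, 1792.2 and 3126.7. App, the amyloid precursor, read 5458.5, 5020.4 and 8350.6, and Itm2b, a membrane protein, 2221.0, 2180.2 and 3568.6. Timp1, an inhibitor of matrix proteases, read 571.3, 919.1 and 1066.5. Pltp, a phospholipid transfer protein, exceeded the limit only in pool 3, at 182.6, 227.0 and 545.0. Dbi, which binds acyl-CoA, and Crym, a thyroid hormone binding protein, were lowest in pool 3, at 4129.7, 3903.7 and 2255.5 for Dbi and 2964.3, 2860.2 and 1932.6 for Crym. Apoc1, an apolipoprotein gene close to Apoe, was not above the limit in any pool, at 301.5, 263.1 and 316.6.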
